A study of Rattus norvegicus with 19 samples.

Results

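The genes described here are angiotensinogen and the enzymes and receptors of the angiotensin system: Agt, Ace, Enpep, Anpep, Lnpep, Agtr1a, Agtr1b, Agtr2 and Mas1. Every probe set annotated to 1 of these 9 symbols alone was taken, which gave 14 probe sets of the 31042 on the array, or 9 of 14217 genes with a probe set of their own. Agt was chosen by its own signal, which peaked at day 1 in these arrays, so its levels are given as a description with no test. The other 8 genes, with 13 probe sets, were taken for their known relation to it.

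RNA came from motor cortex of adult female Fischer 344 rats, from the lower part of the cortex in the forelimb and hindlimb areas, where the corticospinal neurons of layer V lie among glia, vessels and other neurons. A wire knife had cut the dorsal columns at the third cervical segment on days 1, 3, 7, 14 or 49 before the tissue was taken, with 3 arrays at each time. The 4 control arrays carry a time of 0, and the labels do not say whether those rats had a sham operation. The labels name separate samples without saying that each came from 1 animal, so p-values measure the spread between these samples. All 5 times were compared with the same 4 control arrays.

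Angiotensinogen is the precursor protein from which angiotensin I is released. Angiotensin-converting enzyme (Ace) turns angiotensin I into angiotensin II, glutamyl aminopeptidase (Enpep, aminopeptidase A) trims angiotensin II to angiotensin III, and aminopeptidase N (Anpep) trims that to angiotensin IV. Lnpep, a membrane aminopeptidase, binds angiotensin IV. The type 1 receptors (in rodents the products of Agtr1a and Agtr1b) and the type 2 receptor (Agtr2) respond to angiotensin II, and Mas1 is a receptor linked to a shorter angiotensin peptide. In brain, astrocytes are the main source of angiotensinogen, while Enpep and Anpep are known from pericytes and other cells of the vessel wall.

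Promoter sequences are shown for Enpep and Anpep, the members other than Agt in which a probe set lay above all control arrays at day 1. Each is the 250 bases before the start used in a promoter table of RefSeq's rat assembly GRCr8, 5′ to 3′ on the gene's strand, and 8 of the 9 genes matched an entry of that table. Neither holds any of the 7 motifs searched on both strands, so no base is in capitals. The first is at chr2:220526219-220526468 and the second at chr1:143195102-143195351, both on the minus strand. The Enpep window adjoins the end of the span annotated to its gene, and the Anpep window lies inside the span of its gene, so it is not upstream of the whole gene.
Enpep: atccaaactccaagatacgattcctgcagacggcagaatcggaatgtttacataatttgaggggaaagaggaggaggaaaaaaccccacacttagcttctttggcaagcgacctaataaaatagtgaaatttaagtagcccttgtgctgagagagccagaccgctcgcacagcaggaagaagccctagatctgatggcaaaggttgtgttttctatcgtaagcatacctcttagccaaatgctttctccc
Anpep: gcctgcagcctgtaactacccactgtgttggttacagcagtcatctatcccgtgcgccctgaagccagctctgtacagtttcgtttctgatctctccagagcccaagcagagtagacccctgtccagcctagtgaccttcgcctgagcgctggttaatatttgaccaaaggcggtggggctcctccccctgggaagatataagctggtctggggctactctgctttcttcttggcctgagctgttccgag
The GC content of these windows was 45.2% for Enpep and 55.6% for Anpep. The motifs were searched separately, so matches may overlap, and their shares were counted over the same 250 bases of 33469 promoters. The core of the TATA box, TATAAA, was in 12.9% of them. The cyclic AMP response element TGACGTCA was in 1.59%, and the NF-kappaB site GGGACTTTC in 0.272%. The core of the glucocorticoid response element, AGAACA, was in 17.5%. The STAT site TTCNNNGAA was in 7.67%, and the C/EBP type site TTGCNNNAA in 8.17%. The E-box CACGTG was in 5.59%. Among the other members, TATAAA was found in the Agtr1a window at bases -45 to -40 from the table's start, which lies inside the span annotated to that gene, and, on the opposite strand, in the Ace window at -42 to -37. TTGCNNNAA was found in the Lnpep window at -107 to -99. A match describes letters only, and the absence of one says nothing about a factor.

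In 17 of the 19 arrays the median correlation with the other arrays lay between 0.994 and 0.997, and 2 arrays stood apart. Day14 replicate 2 had a median correlation of 0.931 and day49 replicate 2 one of 0.969. The beta-actin control probe sets of the 3′ end exceeded those of the 5′ end by 2.24 (log2) in day14 replicate 2, against 0.877 to 1.29 in the 17 arrays. In day49 replicate 2 this value was 0.85, so that array had no such raised value. The main results are given with and without these 2 arrays. The table has no detection calls. Of the 14 probe sets, 12 had a mean signal below the median probe set of the array, those of Enpep being the exceptions. These 12 ranged from percentile 12.1 of all probe sets (Agtr2 1398288_at) to 48.0 (Anpep). Lnpep lay at 19.4 and 20.2, Mas1 at 21.0, Agtr1b at 28.0, and Ace at 28.4 and 32.4. Whether the lowest of them detected their transcripts was not tested, so a lack of difference in them may reflect a lack of signal.

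Agt, the substrate of the system, had about doubled in signal at day 1 and lay near the control level at day 3. Its log2 signals were 4.81, 4.82, 4.83 and 4.92 in the control arrays, 5.85, 6.06 and 5.74 at day 1, and 4.88, 4.97 and 4.73 at day 3. They were 5.19, 4.95 and 4.88 at day 7, 4.82, 4.86 and 4.71 at day 14, and 5.01, 5.56 and 5.12 at day 49. All 3 day 1 arrays lay above every other array of the series, and the day 3 arrays overlapped the controls. The difference from control at day 1 was 1.04 on the log2 scale (SE 0.12), a 2.05-fold difference of means, and day 3 lay 1.02 below day 1 on the same scale (SE 0.13).

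The order of the Agt group means was day 1 (5.88 ± 0.16, SD, n = 3), day 49 (5.23 ± 0.29), day 7 (5.01 ± 0.16), day 3 (4.86 ± 0.12), control (4.84 ± 0.05, n = 4) and day 14 (4.79 ± 0.08). Only the step from day 1 to day 49 separated neighbouring groups in this order, since each later pair of neighbours shared part of its range. The day 49 arrays nonetheless all lay above the 4 controls. The difference of day 49 from control was 0.38 with all arrays and 0.22 without day49 replicate 2, the highest of the 3. These values chose Agt or come from the same arrays, and no p is given for them.

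**Figure D1:**
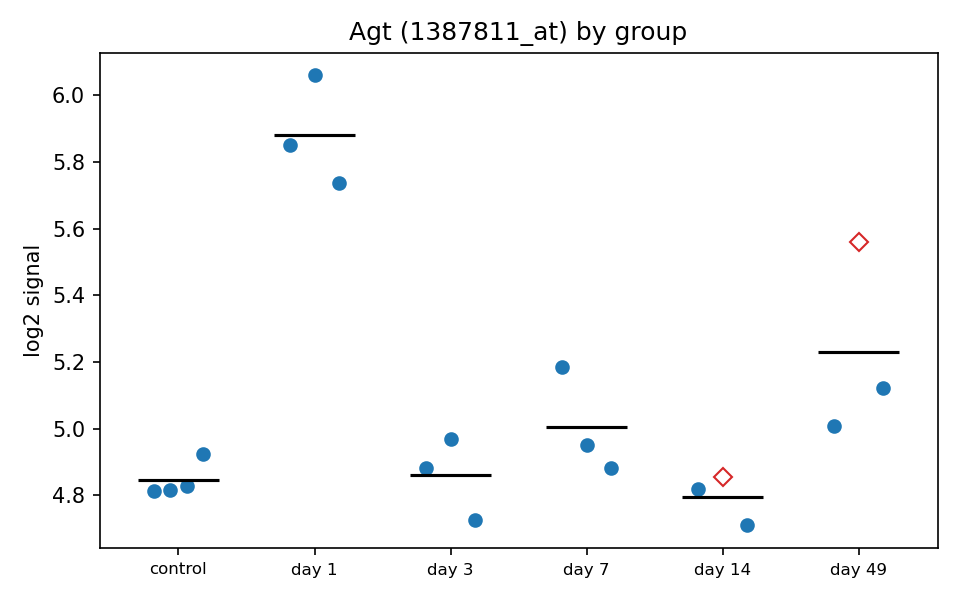
Log2 signal of Agt (vertical axis) in each array by group (horizontal axis); points are arrays, black bars are group means, and open red diamonds mark the 2 arrays that stand apart. The 3 day 1 arrays, at 5.74 to 6.06, lie above all others, and the control arrays lie between 4.81 and 4.92.

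Enpep, whose product removes the first residue of angiotensin II, had the largest day 1 difference of the enzymes and receptors, in 1 of its 2 probe sets. Probe set 1368512_a_at read 6.88, 6.79, 6.80 and 6.94 in the control arrays and 7.38, 7.44 and 7.44 at day 1. It read 6.79, 7.01 and 6.73 at day 3 and 6.76, 6.82 and 6.69 at day 7. The day 1 arrays were nearly alike and lay clear of the control, day 3 and day 7 arrays. At day 14 it read 6.80, 7.40 and 6.64, and at day 49 it read 6.80, 5.64 and 6.78. The odd value at each of these times was that of the array that stands apart.

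The day 1 difference of Enpep probe set 1368512_a_at was 0.57 on the log2 scale, or 1.48-fold. In limma's fit of all 19 arrays its SE was 0.222, with an unadjusted p of 0.0212 and a Benjamini-Hochberg adjusted p of 1.00 over 31042 probe sets. Without the 2 arrays that stand apart, a choice made after seeing the data, the difference was the same, its SE was 0.0689 (95% interval 0.42 to 0.71), and Enpep rose with an adjusted p of 0.00129. A limma fit of the control and day 1 arrays alone gave an adjusted p of 0.0281. Array weights let arrays estimated to vary more about their group means count for less. Limma's fit with these weights gave an adjusted p of 0.00144, where 0.564% of all probe sets were called. With the replicate number as a block the difference was 0.60, with an adjusted p of 1.00 over 19 arrays and 0.00445 over 17.

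The return of this Enpep probe set by day 3 had the same dependence. Day 3 lay 0.58 below day 1, with an adjusted p of 1.00 in limma's fit of 19 arrays, and Enpep fell with an adjusted p of 0.00333 in that of 17. The moderated F test over the 5 times gave an adjusted p of 0.724 with 19 arrays and 0.00412 with 17. The call of the F test over 17 arrays was lost when day1 replicate 2 was also left out.

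The other Enpep probe set, 1368513_at, did not show the day 1 difference. It read 7.33, 7.42, 7.61 and 7.09 in control arrays and 7.37, 7.39 and 7.23 at day 1. The day 1 arrays lay inside the control range. The difference was -0.03, with a 95% interval of -0.31 to 0.26 over 17 arrays. The 2 probe sets of Enpep thus gave different values at day 1, their difference was not tested, and which transcripts each detects was not analysed here. At later times 1368513_at lay between 6.95 and 7.66 except in the arrays that stand apart, which read 5.72 at day 14 and 7.73 at day 49.

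Anpep, the aminopeptidase that acts on angiotensin III and on many other peptides, leaned the same way at day 1 without passing the threshold. It read 5.31, 5.45, 5.49 and 5.26 in control arrays and 5.57, 5.64 and 5.64 at day 1. The day 1 arrays all lay above the controls, by a narrow margin. The difference was 0.24 on the log2 scale (95% interval 0.01 to 0.46), with an adjusted p of 1.00 in limma's fit of 19 arrays and 0.453 in that of 17. At day 3 Anpep read 5.19, 5.49 and 5.36, and at day 7 it read 5.24, 5.42 and 5.46, both within or close to the control range. At day 14 and day 49 the highest Anpep values, 5.59 and 5.77, were those of the arrays that stand apart.

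**Figure D2:**
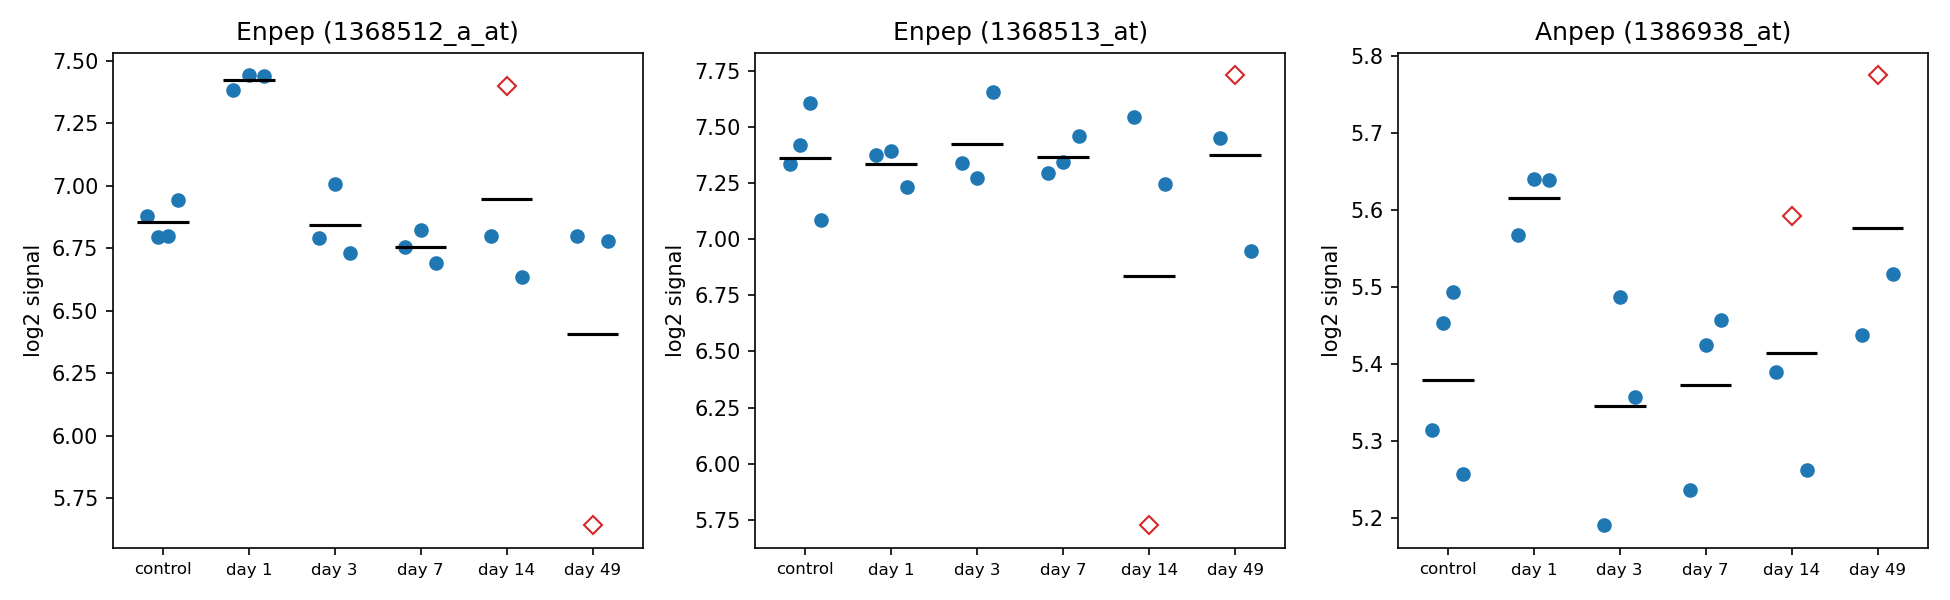
Log2 signal (vertical axes, each with its own scale) of the Enpep and Anpep probe sets in each array by group; points are arrays, black bars group means, open red diamonds the 2 arrays that stand apart. Enpep 1368512_a_at and Anpep lie above all control arrays at day 1, while Enpep 1368513_at overlaps them.

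Ace, which makes angiotensin II, did not pass the test at any time in its 2 probe sets. Probe set 1370028_at had a mean of 4.36 ± 0.13 (SD, n = 4) in control and 4.46 ± 0.16 (SD, n = 3) at day 1, and 1387791_at one of 4.20 ± 0.08 in control and 4.27 ± 0.02 at day 1. Day 1 and control arrays overlapped in both. The day 1 differences were 0.10 (95% interval -0.14 to 0.34) and 0.08 (-0.25 to 0.40) on the log2 scale. At day 49 probe set 1387791_at had a mean of 4.50, in which day49 replicate 2 stood at 5.03.

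Lnpep likewise did not pass the test at any time. Its probe sets 1369376_a_at and 1370743_a_at differed from control at day 1 by 0.06 and 0.04 on the log2 scale, with upper limits of the 95% intervals at 0.23 and 0.19. In each the arrays of the groups overlapped at day 1. At day 14 the Lnpep probe set 1369376_a_at had a mean of 4.05 ± 0.01 (SD, n = 3) against 3.91 ± 0.07 in control, with all 3 arrays above the controls an unadjusted p of 0.113 and an adjusted p of 0.402 in limma's fit.

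Among the receptors, Agtr1a and Agtr1b, which encode the rodent type 1 receptors, did not pass the test at any time. Agtr1a probe set 1369291_at read 4.38, 4.34, 4.37 and 4.50 in control arrays and 4.45, 4.91 and 4.21 at day 1. The day 1 arrays were spread on both sides of the controls. Agtr1a probe set 1384240_at read 5.01, 5.25, 5.20 and 5.20 in control and 5.14, 5.22 and 5.23 at day 1, and 4.94, 4.87 and 5.06 at day 3. The day 3 arrays overlapped the controls at the lower end, and the day 3 difference was -0.21. In day14 replicate 2 this probe set read 5.95, well above the others. Agtr1b read 4.27, 4.13, 4.15 and 4.50 in control and 4.34, 4.26 and 4.63 at day 1, with overlapping groups. The 95% intervals of the day 1 differences ran from -0.20 to 0.45 and from -0.30 to 0.37 for the Agtr1a probe sets and from -0.07 to 0.37 for Agtr1b.

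Agtr2, the type 2 receptor gene, is known for high expression in fetal tissue and low expression in adult brain. Its probe set 1369711_at read 4.20, 4.20, 4.20 and 4.13 in control arrays and 4.15, 4.37 and 4.32 at day 1. It read 4.31, 4.53 and 4.47 at day 14 and 4.20, 4.55 and 4.54 at day 49. All arrays of both late groups lay above the controls, with 1 day 49 array only just so. The differences were 0.25 at both times, with adjusted p-values of 0.365 and 0.306 in limma's fit of 19 arrays. Without the 2 arrays that stand apart they were 0.21 and 0.19, with adjusted p-values of 0.881 and 0.471.

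The second Agtr2 probe set, 1398288_at, differed from control by 0.25 at day 14 and 0.09 at day 49 and did not pass the test. Its differences without the 2 arrays that stand apart were 0.27 and -0.02. Array weights called Agtr2 probe set 1369711_at at day 49 (0.32, adjusted p = 0.00833), under a setting that called 21.0% of all probe sets at that time. The weights of day49 replicates 1, 2 and 3 were 0.385, 0.067 and 3.70, so the weighted day 49 value rests mostly on replicate 3. Agtr2 1369711_at was also called without day49 replicate 1, at 0.36 with an adjusted p of 0.0364. That fit left out the lowest day 49 value, 4.20, and kept day49 replicate 2, which stands apart. Over all probe sets, the day 49 fits with single arrays left out called 0 to 2435.

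Mas1 read 3.90, 4.06, 3.94 and 3.87 in control arrays and 3.94, 3.97 and 4.04 at day 1. The day 1 arrays lay within the control range. Its highest value, 4.63, was that of day49 replicate 2, while the other arrays of that day both read 3.96. Day49 replicate 2 was the highest array of all 19 in 7 of the 14 probe sets, including both Ace probe sets, Anpep and Mas1.

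**Figure D3:**
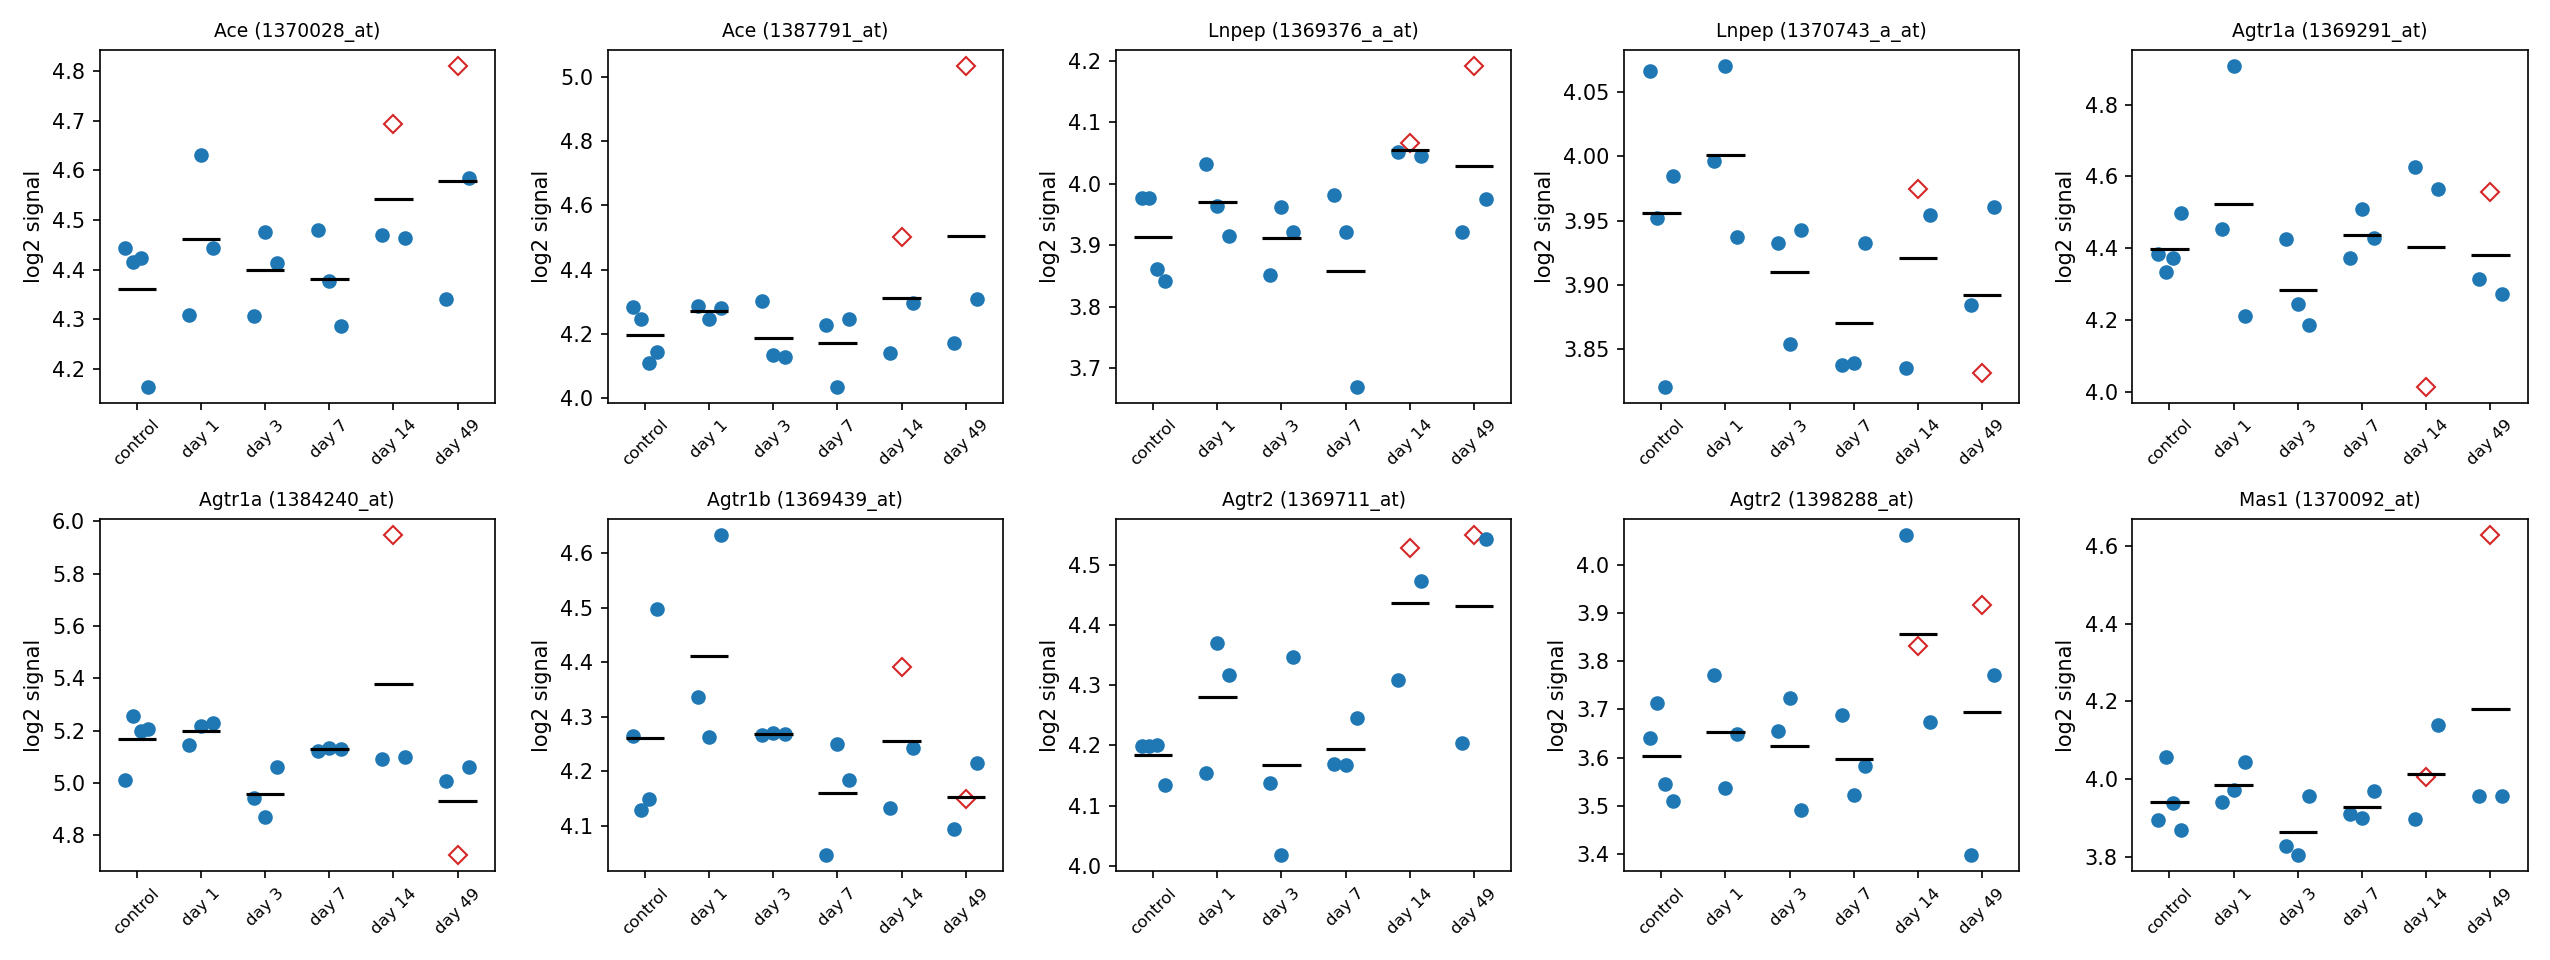
Log2 signal (vertical axes, each with its own scale) of the 10 probe sets of Ace, Lnpep, Agtr1a, Agtr1b, Agtr2 and Mas1 in each array by group; points are arrays, black bars group means, open red diamonds the 2 arrays that stand apart. Day 1 arrays overlap the control arrays in all 10.

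Over the 13 enzyme and receptor probe sets, the day 1 comparison called 0 in limma's fit of 19 arrays, where 0.0354% of all probe sets were called. At an unadjusted p under 0.05 there were 2, Enpep 1368512_a_at and Anpep, against 1.64% of all probe sets. Without the 2 arrays that stand apart it called 1, Enpep 1368512_a_at, where 0.219% of all probe sets were called. The day 1 arrays lay above all control arrays in 2 of the 13, against 4.4% of all probe sets, and below them in 0, against 2.54%. The median difference at day 1 was 0.08 on the log2 scale, with 12 of 13 above 0. Over all probe sets the median was 0.01, with an interquartile range of -0.06 to 0.07. The 13 probe sets are of 8 genes and share the same arrays, so they are not independent. The count above 0 is a description, and the share of all probe sets above 0 was not counted.

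**Figure D4:**
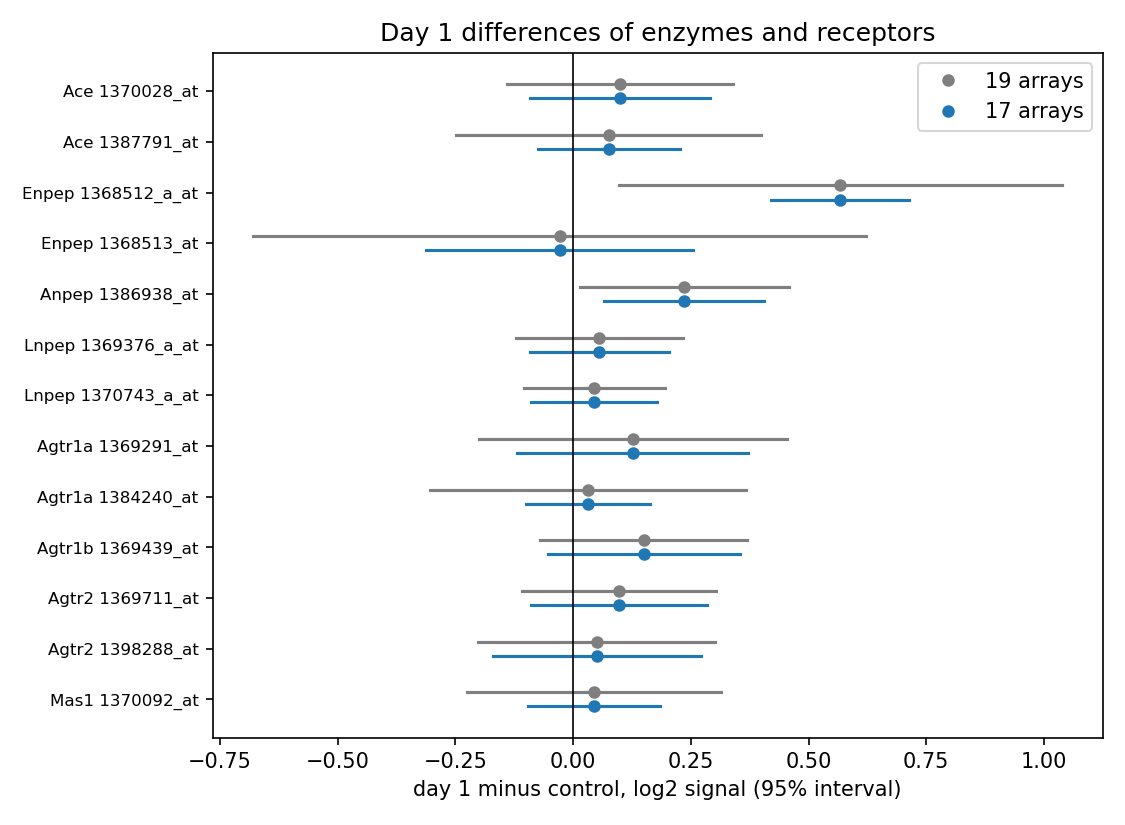
Difference of day 1 from control in log2 signal (horizontal axis) for the 13 enzyme and receptor probe sets (vertical axis), with 95% intervals of limma's fit of 19 arrays (grey) and of the 17 arrays without the 2 that stand apart (blue). Enpep 1368512_a_at lies farthest to the right at 0.57, and Anpep, at 0.24, is the other whose intervals lie above 0.

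At the later times against control limma's fit of 19 arrays called 0 of the 13 and 0.0% of all probe sets at each of days 3, 7, 14 and 49. At an unadjusted p under 0.05 there were 0 of the 13 at day 3, 0 at day 7, 2 at day 14 and 1 at day 49, the latter 3 being Agtr2 probe sets. Over all probe sets 0.908% had such a p at day 3 and 0.886% at day 7. The shares were 13.1% at day 14 and 15.4% at day 49, so these counts are near or below the background. The counts without the 2 arrays that stand apart were 1, 0, 1 and 0 at days 3, 7, 14 and 49. The day 14 arrays lay above all controls in 3 of the 13 (Ace 1370028_at, Lnpep 1369376_a_at and Agtr2 1369711_at), against 6.43% of all probe sets, and the day 49 arrays in 1, against 5.27%. Without the 2 arrays that stand apart these counts were 4, with Agtr1a 1369291_at added, against 8.82%, and 1, against 7.54%. The arrays of days 3 and 7 lay above all controls in 0 of the 13, against 2.65% and 2.86%, and below them in 0, against 2.82% and 4.19%. Those of days 14 and 49 lay below in 0, against 2.62% and 4.8%. With the 2 arrays that stand apart left out these became 0 at day 14, against 5.77%, and 1 at day 49, Agtr1a 1369291_at at -0.10 on the log2 scale, against 7.13%. The median difference of the 13 was 0.09 at day 14 (0.07 over all probe sets) and 0.09 at day 49 (0.01), and without the 2 arrays 0.03 and -0.02. From day 1 to day 3 limma's fit of 19 arrays called 0 of the 13, against 0.0258% of all. Of the 13, 2 had an unadjusted p under 0.05 (Enpep 1368512_a_at and Anpep), against 1.85% of all. Without the 2 arrays that stand apart the day 3 against day 1 comparison called 1, Enpep 1368512_a_at, against 0.203%. There 3 had an unadjusted p under 0.05, against 7.92%. With array weights this comparison called 2, Enpep 1368512_a_at and Anpep, against 1.58%. The F test called 0 against 0.0129% with 19 arrays, 1 against 0.135% with 17, and 3 against 20.7% with array weights. With 19 arrays 2 had an unadjusted p under 0.05 in the F test, against 4.41%.

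The wider pathway did not pass the test. The list of other genes of the angiotensin pathway held 11 with a probe set of their own, among them Atp6ap2, the neutral endopeptidase gene Mme, Thop1, Nln, Prep and Ctsd. In limma's fit of 19 arrays 0 of the 11 were called at any time and 0 had an unadjusted p under 0.05 at day 1, with 2 of 11 above 0 and a median difference of -0.04. The smallest F test p-values of the list were those of Nln, at -0.14 at day 1 (adjusted p = 1.00), and Mme, at -0.20 (adjusted p = 1.00). Of 9 partners of the receptors (G proteins, arrestins, kinases and binding proteins), 7 other aminopeptidases of the family of Enpep and 13 other serpins, the family to which angiotensinogen belongs by structure, 0 were called at day 1 or in the F test, and 0 in each had an unadjusted p under 0.05 at day 1 over 19 arrays. Over 17 arrays 0 were called and 0, 0 and 3 had such a p at day 1, against 7.12% of all probe sets. The median day 1 differences of these lists were 0.04, 0.00077 and -0.05. The smallest F test p-values were those of Gna12 and Grk5, of Erap1 and Npepps, and of Serpine2 and Serpini2.

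Of 12 transcription factors known to act on the Agt gene, 0 were called at day 1 in limma's fit of 19 arrays. An unadjusted p under 0.05 was found for 1, against 1.64% of all probe sets. That 1 was Cebpd, a factor of the acute phase response, at 7.37 ± 0.13 (SD, n = 4) in control and 7.92 ± 0.11 (SD, n = 3) at day 1. The Cebpd arrays of day 1 lay above all controls, the difference was 0.55, and its adjusted p was 0.671 with 19 arrays and 0.00426 with 17. Rela, a subunit of NF-kappaB, differed by 0.01 at day 1. Of the 12 factors, 7 were above 0 at day 1, with a median of 0.01. Over 17 arrays Cebpd was the 1 factor called, and 3 had an unadjusted p under 0.05, against 7.12% of all probe sets. Of 11 acute phase genes the fit of 19 arrays called 1, Lbp, at 0.82 (adjusted p = 0.0148), where 0.0354% of all probe sets were called. The fit of 17 called 4, where 0.219% of all were called: Lbp, Mt2A (0.71), Steap4 (0.93) and Cp (0.78). In this list 10 of 11 were above 0 at day 1, with a median of 0.18. The genes of both lists were chosen with earlier results of these data known, so their calls are given as a description.

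Markers of the cells that could carry these transcripts were read beside them at day 1. The mean log2 signal of 13 astrocyte markers was 7.49 to 7.54 in control arrays and 7.58 to 7.67 at day 1, with no overlap, and 6 of the 13 lay below the median probe set. At day 14, where Agt had its lowest group mean (4.79), the astrocyte mean also lay above the controls. It was 7.58 to 7.82 there, or 7.58 to 7.62 without the array that stands apart. Of these 13 markers, 9 were above 0 at day 1 with a median of 0.03 and 0 were called. An unadjusted p under 0.05 was found for 1, against 1.64% of all probe sets. That 1 was Gfap, the intermediate filament of astrocytes, at 5.18 ± 0.22 in control and 5.82 ± 0.08 at day 1 (adjusted p = 0.615 with 19 arrays, 0.0976 with 17); over 17 arrays its F test was past the threshold (adjusted p = 0.0401). The gap junction gene Gja1 differed by -0.01.

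The mean of 11 endothelial markers was 7.00 to 7.10 in control arrays and 7.12 to 7.25 at day 1, with 10 of 11 above 0, a median of 0.12 and 0 called. Esam (0.18) and Kdr (0.15) had the smallest F test p-values of that list. The mean of 10 pericyte and smooth muscle markers was 5.81 to 5.98 in control and 5.86 to 6.07 at day 1, with overlap, 6 of 10 above 0 and a median of 0.03. In that list Rgs5 differed by 0.32 (adjusted p = 1.00) and Kcnj8 by -0.04. The part of these cell types in the Agt and Enpep values was not tested. In bulk tissue more cells of a type and more RNA per cell cannot be told apart.

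The means of the 10 markers of layer V neurons were 9.91 to 9.97 in control and 9.87 to 9.91 at day 1, with 1 of the 10 below the median probe set. In that list 3 of 10 were above 0, 0 were called and Crym, at -0.20, and Ldb2, at -0.32, had the smallest F test p-values. For 11 meningeal and choroid plexus markers the means were 7.30 to 7.52 in control and 7.27 to 7.48 at day 1, with 7 of 11 above 0, a median of 0.03 and 0 called over 19 arrays. Over 17 arrays 1 of them, the fibroblast proteoglycan gene Lum, fell by 0.93 (adjusted p = 0.041), and Mgp differed by 0.30. For 10 microglia markers the means were 5.99 to 6.09 in control and 6.03 to 6.28 at day 1, with 6 of 10 above 0, a median of 0.02 and 0 called over either set of arrays; C1qc differed by 0.62 and Csf1r by 0.20. Unadjusted p-values under 0.05 at day 1 numbered 0 for endothelial and pericyte lists and 1, 1 and 2 for neuron, meningeal and microglia lists over 19 arrays. Over 17 arrays they numbered 2 for the endothelial, 1 for the pericyte, and 2 each for the neuron, meningeal and microglia lists. Of all probe sets, 1.64% had such a p at day 1 over 19 arrays and 7.12% over 17.

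The genes whose signal followed Agt most closely were ranked by Pearson's r with it over the 19 arrays, with 1 probe set per gene and 14216 other genes compared. The first 10 were Spon2, a secreted matrix protein (r = 0.87), Prodh, proline dehydrogenase (0.87), Crip1 (0.86), Igfbp6, which binds insulin-like growth factors (0.81), Lbp (0.81), the secreted protease Htra1 (0.78), the phospholipase Pla1a (0.78), the secreted glutathione peroxidase Gpx3 (0.77), Lrg1 (0.76) and Tmem88 (0.74). All 10 had a day 1 difference above 0, from 0.36 for Htra1 to 0.86 for Igfbp6, on the log2 scale. At day 3 their differences lay between -0.30 for Igfbp6 and 0.07 for Lbp. Of these 10, Lrg1 came nearest to the day 49 value of Agt, at 0.37 against 0.38.

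The ranking depended on the 2 arrays that stand apart. Over the other 17 arrays the first 10 shared 5 genes with the list above (Spon2, Prodh, Crip1, Lbp and Htra1). It added Timp4, an inhibitor of metalloproteinases (r = 0.95), Lgi4 (0.92), Ndrg2 (0.91), the vessel transporter gene Abcg2 (0.89) and Cebpd (0.89). Ndrg2 had r = 0.32 over 19 arrays. These correlations share the arrays and the single high group at day 1, and are given as a description.

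**Figure D5:**
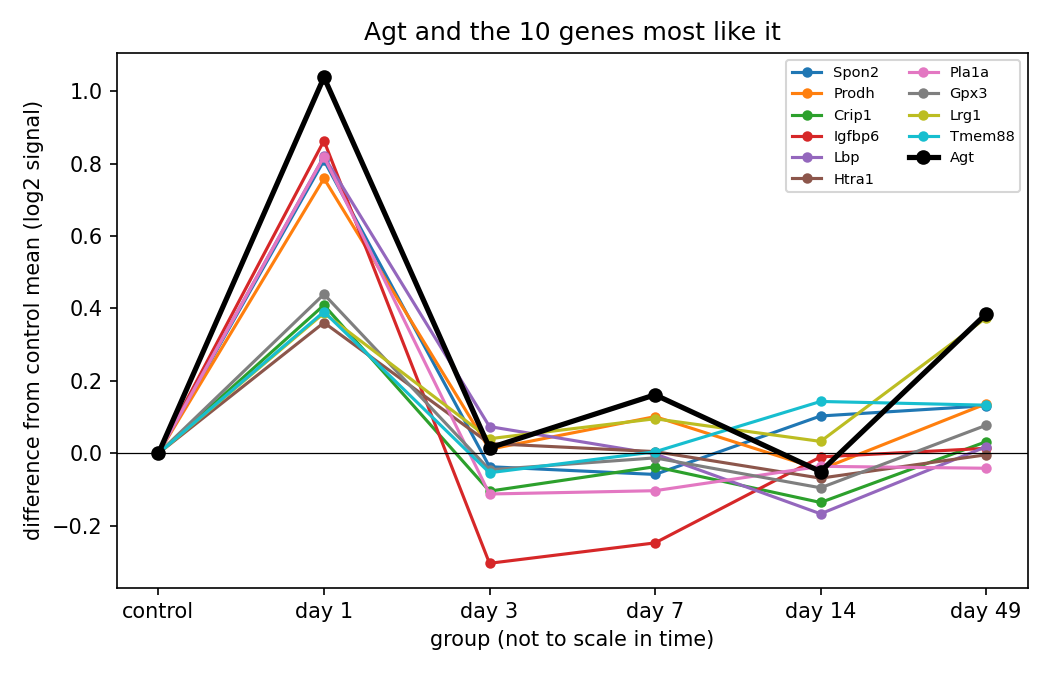
Difference from the control mean in log2 signal (vertical axis) by group (horizontal axis, not to scale in time) for Agt (black) and the 10 genes of highest Pearson's r with it over 19 arrays. All lines are highest at day 1 and lie between -0.30 and 0.07 at day 3; Agt and Lrg1 lie at 0.38 and 0.37 at day 49.

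Among the members, Enpep 1368512_a_at had r = 0.28 with Agt over 19 arrays and 0.91 over 17, and Anpep had 0.64 and 0.68. Within groups, after each group's mean was taken out, r over the 17 arrays was -0.17 for Enpep and 0.03 for Anpep. The likeness of Enpep and Anpep to Agt thus lay between group means. Over 17 arrays the other 11 probe sets had r with Agt from -0.19 (Enpep 1368513_at) to 0.39 (Agtr1b).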

How the data were processed

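Total RNA of 19 samples, in 6 groups taken from the labels, was hybridised to Affymetrix rat arrays. The values are log2 signals that the authors deposited after RMA, per the submitters' processing notes, which give no version. RMA forces 1 distribution on every array and hides any global shift. The number of arrays limits the precision. Scan dates were not analysed here, and a batch matching a group could not be separated from that group.

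Of 31099 probe sets, 57 array controls were left out. Gene symbols were those of the platform annotation, brought up to date by gene ID: 20826 probe sets had 1 symbol, 436 several and 9780 none. The remaining 31042 were fitted with limma 3.58.1 (R 4.3.3) as 6 group means with default eBayes. Tests were two-sided and p-values were adjusted over all 31042 by Benjamini-Hochberg; a probe set with an adjusted p under 0.05 is said to be called. Residual degrees of freedom were 13 and prior ones 2.76. The fit was tested on simulated data with the same noise spread in every array, so that test does not cover arrays that stand apart.

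The members, the 12 gene lists (144 genes, each by its probe set of highest mean) and the tests were chosen with earlier results of these data known. Named were all member probe sets, list genes past the threshold, the 2 of smallest F test p in each list, and the 10 genes most like Agt. Alternatives were centring, renewed quantile normalization, a median filter, trend and robust eBayes, array weights, only the 2 groups compared, the replicate block, and each array left out. Fits without the 2 arrays that stand apart were added after seeing the data. Groups share replicate numbers in the labels without a stated meaning. Deviations of like-numbered control and day 1 arrays correlated by 0.166, 0.117 and 0.269, so the blocked values stand beside the day 1 result; in the other comparisons they were not all above 0.1. Promoter windows were planned at 300 bases, and only the 250 upstream ones were searched. Python 3.11.15 and matplotlib 3.10.9 were used for the plots.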

Additional observations from a re-analysis of the deposited data

Results flagged for a closer look

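In 3 of 14 probe sets 1 control array lay far from the other 3 of its group by Dixon's criterion, which flags about 1 in 20 groups by chance. Agt read 4.92 in its highest control array, against 4.81 to 4.83 in the others. Ace probe set 1370028_at read 4.16 in its lowest control array, against 4.41 to 4.44. Agtr2 probe set 1369711_at read 4.13 in its lowest control array, against 4.20 in each of the others.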

How the results depend on the processing

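Over all alternatives to the differences from control of the 14 probe sets, 1180 values stayed on their side of the threshold and moved by less than the spread between replicates, and 34 moved by more than that spread. Another 14, those of Enpep 1368512_a_at at day 1 and Agtr2 1369711_at at day 49, passed the threshold where they had not; as 0 of the 13 tested were called in the fit of 19 arrays, no call could be lost or reversed. The day 1 difference ranged from 0.95 to 1.11 for Agt over 23 alternatives and from 0.55 to 0.60 for Enpep 1368512_a_at over 24; a filter at the median probe set removes Agt. At day 1 the count of called enzyme and receptor probe sets was 0 in the fit of 19 arrays and 1 with array weights, with only the 2 groups compared, without the 2 arrays that stand apart, and without them with the replicate block or with array weights. It was 0 with the replicate block over 19 arrays. It was 0 for each single control or day 1 array left out of the 19, and 1 for each left out of the 17. For this comparison the arrays of other groups were not left out singly. From day 1 to day 3 it was 2 with array weights (Enpep 1368512_a_at and Anpep) and 1 without the 2 arrays, with the replicate block or array weights added. In the F test it was 3 with array weights (Enpep, Anpep and Agtr2 1369711_at), 1 without the 2 arrays, also with the replicate block or array weights added; it was 0 for each single array left out of the 19, and 0 to 1 for single control, day 1 or day 3 arrays left out of the 17. At day 49 it was 1 (Agtr2 1369711_at) with array weights and 0 to 1 when single arrays were left out. The replicate block changed no other count of members.

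Over all probe sets, 11 were called at day 1 in the fit of 19 arrays, 3 with the replicate block, 19 with only the 2 groups, 68 without the 2 arrays, 46 without them with the replicate block, 160 without them with array weights, and 175 with array weights. The F test called 4 over 19 arrays, 0 with the replicate block, 42 without the 2 arrays and 6413 with array weights. At day 49 the counts were 0 over 19 arrays, 6514 with array weights, and 0 to 2435 when single arrays were left out. The cause was not tested.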

Other observations

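Where a gene had 2 probe sets, they often did not follow each other. Pearson's r between the pair over 19 and over 17 arrays was 0.69 and 0.19 for Ace, -0.47 and -0.14 for Enpep, -0.08 and 0.06 for Lnpep, -0.36 and 0.30 for Agtr1a, and 0.37 and 0.14 for Agtr2. For each of the 8 members other than Agt, the 2 genes of highest r over 19 arrays and the 2 over 17 arrays shared 0 genes. For Enpep, by its brighter probe set 1368513_at, they were Clptm1 (0.95) and Chd4 (0.95) over 19 arrays. Agtr2 1369711_at and Mas1, both receptors, had r = 0.64 over either set of arrays and 0.50 within groups over 17. These values share arrays and are given as a description.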
